A study of Bos taurus with 33 samples.

Results

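The egg coat and egg surface genes ZP2, ZP3, ZP4, ASTL, CD9 and CD81 were taken by gene symbol from expression tables of bovine oocytes and of the cumulus cells (CC) that enclose them. These 6 genes were chosen among the 17543 genes in either table, and rows of the tables were joined by Ensembl gene identifier. The study asked whether transcripts of oocytes and CC differ with the maturity of the preovulatory follicle in suckled postpartum Hereford-Angus crossbred beef cows. All 6 genes had a row for oocytes, and 4 (ZP2, ZP3, CD9 and CD81) had one for CC. The CC levels of ZP4 and ASTL were not analysed here.

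A library was a pool of 4 oocytes, or of the CC that had surrounded 4 oocytes, so that each value mixes several follicles. In the small classification the largest follicle measured up to 11.7 mm, the cow showed no estrus, and a second gonadotropin-releasing hormone (GnRH) injection induced the gonadotropin surge. In the large classification the follicle measured at least 12.7 mm under the same injection. In the spontaneous classification the follicle measured 11.7 to 14.0 mm, the cow showed estrus, and its surge was endogenous. Cows of every classification had earlier received GnRH and prostaglandin F2 alpha. Complexes were aspirated about 23 h after the second GnRH injection or estrus according to the protocol text of the labels, whose stage field gives about 20 h. There were 6 small, 6 large and 4 spontaneous oocyte pools, and 6, 6 and 5 CC pools. Follicle size, estrus and the origin of the surge differ together between the small and spontaneous classifications and cannot be told apart there. Between large and spontaneous, estrus and the origin of the surge differ together, and the size ranges (at least 12.7 mm against 11.7 to 14.0 mm) overlap only in part. These cannot be told apart there either. Oocytes were stripped of CC by pipetting and hyaluronidase before lysis.

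The zona pellucida is the glycoprotein coat that the oocyte secretes during growth and that sperm bind and cross. In cattle it is built from ZP2, ZP3 and ZP4, whose genes are activated by the oocyte transcription factor FIGLA. ASTL encodes ovastacin, a protease stored in cortical granules that cleaves ZP2 after fertilization and so ends sperm binding, whereas CD9 and CD81 are tetraspanins, membrane proteins that organize partners such as integrins and, on the egg, take part in sperm-egg fusion. The symbols ZP1 and IZUMO1R (the egg receptor for sperm IZUMO1, also called JUNO) matched no row and were not analysed here.

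Levels are in CPM, counts per 1000000 reads that fell on genes, and are not compared between genes because they are not divided by transcript length. Reads on genes numbered 7664375 to 17934916 per oocyte pool and 1911600 to 5772431 per CC pool. A gene without a read could still have had up to 0.391 CPM in the shallowest oocyte pool and 1.57 CPM in the shallowest CC pool, the worth of 3 reads. These limits and the counting intervals given for pooled levels cover counting error only, since reads of amplified cDNA are not independent molecules. Markers of oocytes (among them GDF9, BMP15 and NOBOX) summed to between 4875 and 6852 CPM in the oocyte pools and to between 1.57 and 13.7 CPM in the CC pools. Markers of cumulus and granulosa cells (among them VCAN, INHA and TNFAIP6) summed to between 12552 and 34493 CPM in CC pools and to between 816 and 4478 CPM in oocyte pools.

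ZP2 and ZP3 were abundant in every oocyte pool and nearly without reads in CC, while CD9 and CD81 were read in every pool of both kinds and at higher levels in CC. The tables were scaled separately by the authors and were not tested against each other, and fewer cells of a type cannot be told apart from less RNA per cell. ZP2 (ENSBTAG00000011504) ranged from 3342 to 5802 CPM over the 16 oocyte pools, with a median of 4261. In CC it had 9 reads in all, found in 5 of 17 pools, of which 1 was small, 2 large and 2 spontaneous. Every oocyte pool lay above every CC pool.

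The pooled CC level of ZP2 was 0.125 CPM (95% Poisson interval 0.0574 to 0.238), against 4392 CPM in the pooled oocyte reads. ZP3 (ENSBTAG00000014834, listed in the CC table by identifier without a symbol) ranged from 447 to 1128 CPM in oocyte pools with a median of 641. It had 2 reads in all in CC, in 2 of 17 pools, or 0.0279 CPM pooled (interval 0.0034 to 0.101). Of the 14980 genes in both tables, 17.5% likewise had every oocyte pool above every CC pool and 10.6% had every CC pool above every oocyte pool. The CC level was 0.0029% of the oocyte level for ZP2 and 0.0038% for ZP3.

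OOSP1, which encodes another protein secreted by oocytes, had a CC share of 0.0075%, and GDF9, an oocyte growth factor, had 0.12%. OOEP, a gene of the subcortical maternal complex, had 5.07%. CD9 (ENSBTAG00000014764) had a median of 12.1 CPM in oocyte pools (range 1.72 to 39.4) and of 77.2 CPM in CC pools (range 16.6 to 154). These ranges overlapped. CD81 (ENSBTAG00000047495) had a median of 14.9 CPM in oocyte pools (range 5.18 to 31.2) and of 50.5 CPM in CC pools (range 27.2 to 69.3), and its ranges overlapped as well. In pooled reads the oocyte level was 18.0% of the CC level for CD9 and 31.5% for CD81.

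**Figure D1:**
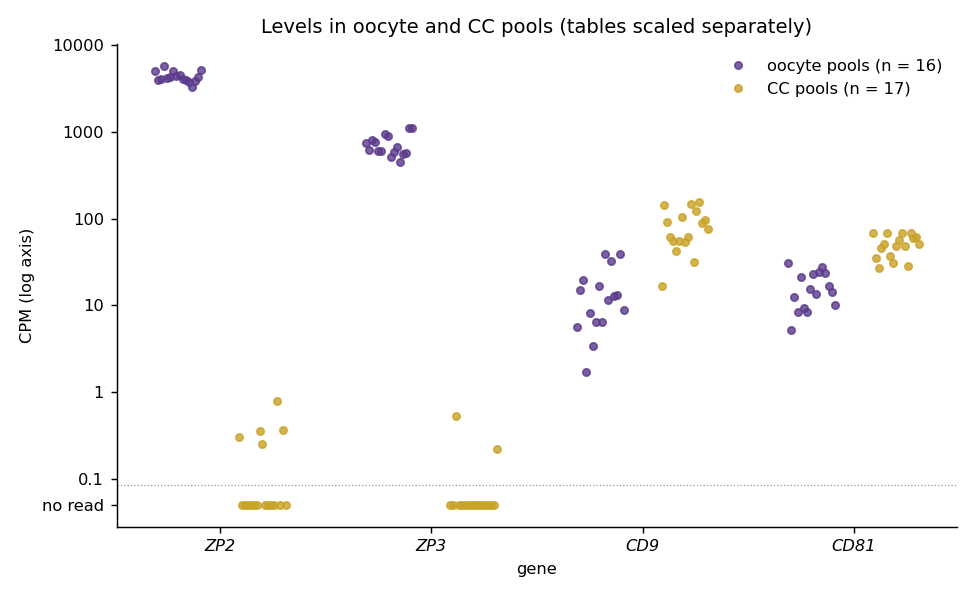
CPM on a log axis of the 4 genes with a row in both tables, with 1 point per pool for 16 oocyte pools and 17 CC pools and pools without a read set on the lowest line. ZP2 and ZP3 separate the cell types completely, with 12 and 15 CC pools without a read, whereas CD9 and CD81 are higher in most CC pools and overlap.

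Transcripts of cumulus markers were read in the oocyte libraries as well, and whether cumulus cells or oocytes made them was not tested. Of the 15 cumulus and granulosa markers listed, 10 had a CC median of at least 50 CPM. Of these 10, 9 had an oocyte level of 1.22% (TNFAIP6, a matrix-binding protein of the expanding cumulus) to 8.13% (PTGS2, a prostaglandin synthase) of their CC level. The same share was 18.0% for CD9. The other was HAS2, the hyaluronan synthase, at 226%. VCAN, a matrix proteoglycan that made up most of the marker sum, was at 6.97%, and FSHR, the follicle-stimulating hormone receptor, was at 2.05%.

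CD9 was high in the oocyte pools where these markers were high. The marker sum was 3113 CPM in spontaneous replicate 3, 3623 in large replicate 4, 4279 in large replicate 6 and 4478 in small replicate 3. CD9 in those pools was at 39.4, 39.4, 32.4 and 19.6 CPM. Small replicates 4 and 6, with marker sums of 1155 and 1029 CPM, had the lowest CD9, at 1.72 and 3.36 CPM. The order was looser among low sums. Large replicate 1 had the lowest sum, 816 CPM, with CD9 at 6.46 CPM. Spontaneous replicate 4, with a sum of 1067 CPM, had CD9 at 8.81 CPM.

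Over the 16 oocyte pools Spearman's rho between CD9 and the marker sum was 0.77, as a description of pools whose 2 measures come from the same library. Pearson's r of the log2 values was 0.78, and 0.76 without the 2 pools farthest from the median sum. The same rho was 0.34 for CD81, 0.38 for ASTL, -0.16 for ZP4, -0.25 for ZP3 and -0.62 for ZP2. The transcripts most like CD9 among 9570 with a symbol included TIMP2 (rho 0.91) and TIMP1 (0.89). TIMP1 and TIMP2 encode inhibitors of matrix metalloproteinases and had CC medians of 838 and 366 CPM, against 20.5 and 5.07 CPM in oocytes. The part of cumulus RNA in the oocyte CD9 values was not tested.

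**Figure D2:**
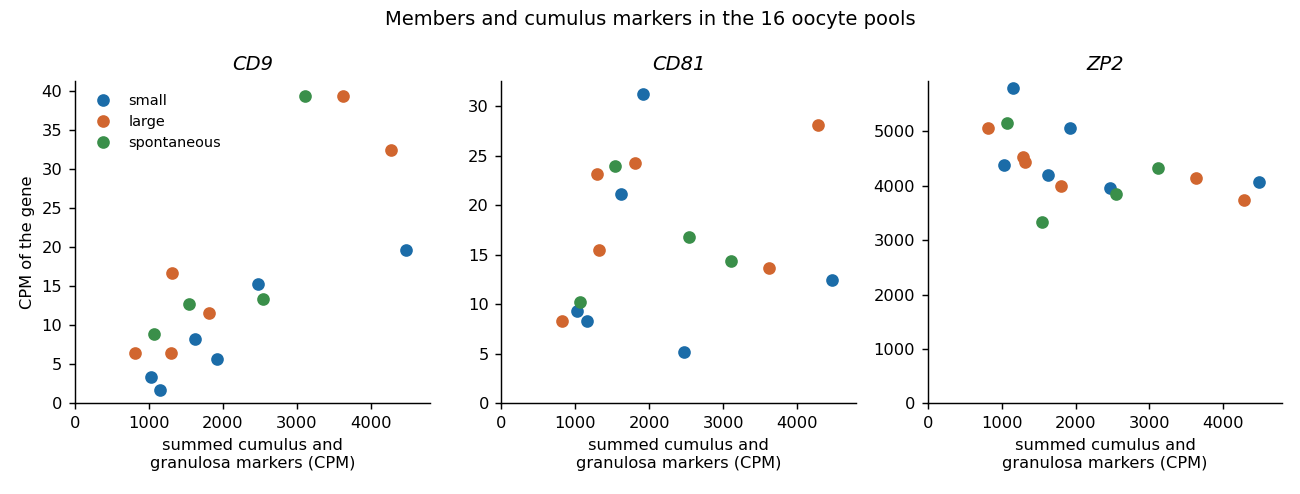
CD9, CD81 and ZP2 in CPM against the summed CPM of 15 cumulus and granulosa markers, with 1 point per oocyte pool colored by follicle classification. The pools with the highest sums (3113 to 4478 CPM) hold the highest CD9 values (19.6 to 39.4 CPM), CD81 shows no such order, and the rho of ZP2 is negative (-0.62).

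Among oocyte pools none of the 6 genes passed the test of a difference between follicle classifications, and the classes overlapped for each of them. Each gene was tested in 3 comparisons with limma on log2(CPM + 1), two-sided, at a nominal p of 0.01 or less, and 0 of the 18 tests passed. Over the 10076 retained transcripts, 0.655% passed between small and large, 0.774% between small and spontaneous, and 0.943% between large and spontaneous. At an unadjusted p under 0.05, 0 of 18 passed with limma, with edgeR and with DESeq2, while limma gave 4.11%, 4.51% and 4.87% of all retained transcripts in the same comparisons. The smallest limma p was 0.0951, and the smallest Benjamini-Hochberg adjusted p over all retained transcripts was 0.975. No gene had classes that did not overlap, as 0.258%, 0.903% and 0.913% of all retained transcripts had. An exact two-sided permutation test could reach p = 0.00216 for 6 against 6 pools and 0.00476 for 6 against 4.

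Relative to its level, ZP2 had the narrowest range of the structural zona genes, with its highest oocyte pool at 1.74 times its lowest. It ranged from 3959 to 5802 CPM in small pools (median 4289) and from 3743 to 5064 in large pools (median 4291), and it was at 3342, 3851, 4322 and 5160 in the spontaneous pools. The 3 classes covered nearly the same range. Means were 4580 ± 715 (SD, n = 6), 4318 ± 464 (n = 6) and 4169 ± 773 CPM (n = 4). The 95% limits of the large to small ratio were 0.83 and 1.08, those of spontaneous to small 0.766 and 1.07, and those of spontaneous to large 0.825 and 1.11.

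ZP3 ranged from 603 to 818 CPM in small pools (median 683) and from 447 to 960 in large pools (median 630). In the spontaneous pools it was at 558, 574, 1120 and 1128 CPM. A pair of spontaneous pools therefore lay inside the range of the large pools and a pair above every other oocyte pool. The means were 695 ± 95.9, 682 ± 210 and 845 ± 322 CPM (SD, n = 6, 6 and 4). From large to spontaneous the log2 fold change was 0.28 (SE 0.209, limma p = 0.189, adjusted p = 0.975, exact permutation p = 0.314), with 95% limits of 0.903 and 1.64 for the ratio.

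ZP4 (ENSBTAG00000026085) ranged from 570 to 928 CPM in small pools (median 838) and from 474 to 900 in large pools (median 759). It was at 532, 678, 780 and 971 CPM in the spontaneous pools, so the classes overlapped over most of their range. Its ratio limits were 0.769 and 1.17 for large against small, 0.734 and 1.18 for spontaneous against small, and 0.774 and 1.25 for spontaneous against large.

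**Figure D3:**
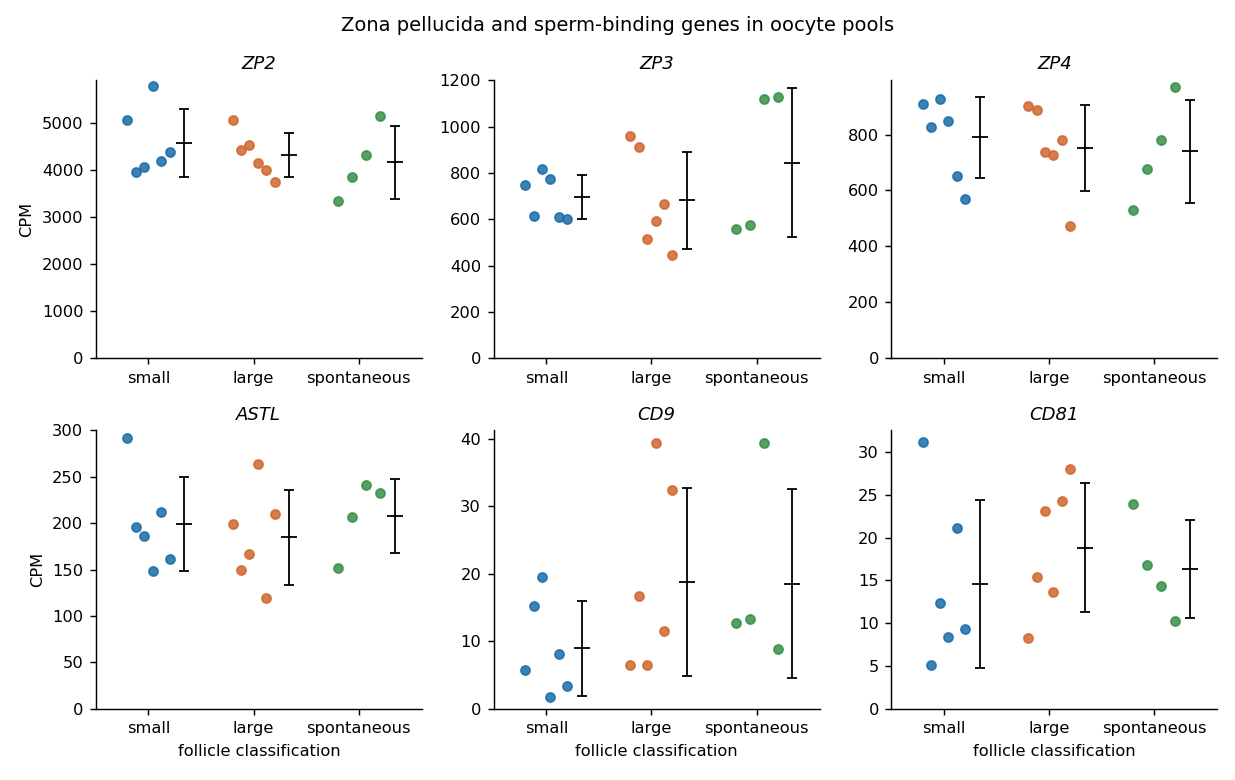
CPM of the 6 genes in each oocyte pool by follicle classification (6 small, 6 large and 4 spontaneous pools), with the mean and SD as bars beside the points. The classes overlap for every gene, and the points of CD9 spread most, from 1.72 to 39.4 CPM.

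ASTL (ENSBTAG00000020348), the ovastacin gene, ranged from 149 to 291 CPM in small pools (median 191) and from 120 to 264 in large pools (median 183). In the spontaneous pools it was at 151, 206, 241 and 232 CPM, within the range of the small pools. The log2 fold change was -0.12 for large against small, 0.07 for spontaneous against small and 0.19 for spontaneous against large, with limits of the ratio between 0.697 and 1.55 over the 3 comparisons.

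In the 2 comparisons with small pools, CD9 had the largest fitted differences of the 6 genes and the widest intervals. It ranged from 1.72 to 19.6 CPM in small pools (median 6.93) and from 6.45 to 39.4 in large pools (median 14.1). It was at 12.7, 13.3, 39.4 and 8.81 CPM in the spontaneous pools. The log2 fold change from small to large was 1.02 (SE 0.589, 95% limits of the ratio 0.877 and 4.66, limma p = 0.0951, adjusted p = 0.997), with an exact permutation p of 0.167. Without small replicate 3, the small pool with the highest CD9 and the highest cumulus marker sum, it was 1.29 at an unadjusted limma p of 0.0435. For spontaneous against small it was 1.08 (SE 0.679, limits 0.806 and 5.54, exact permutation p = 0.167). For spontaneous against large it was 0.06 (limits 0.457 and 2.39). Each of these intervals includes no difference as well as ratios above 2.

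CD81 ranged from 5.18 to 31.2 CPM in small pools (median 10.8) and from 8.32 to 28.1 in large pools (median 19.3). It was at 23.9, 16.8, 14.3 and 10.2 CPM in the spontaneous pools, inside the range of the small pools. Its log2 fold changes were 0.47 (large against small), 0.32 (spontaneous against small) and -0.15 (spontaneous against large), and the limits of the ratio reached from 0.446 to 2.86. In oocytes 21 to 519 reads per pool lay behind the CD9 values and 70 to 385 behind those of CD81, against at least 1297 for ASTL.

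In CC the fitted level of CD9 was highest in spontaneous pools without passing the threshold, and that of CD81 was nearly the same in every class. Both were retained there, with at least 5 CPM in 17 of 17 pools, whereas ZP2 and ZP3 reached that level in 0. Of 6 tests 0 passed the threshold, beside 0.813%, 2.38% and 1.66% of the 9712 retained CC transcripts in the order small to large, small to spontaneous and large to spontaneous. At an unadjusted p under 0.05, limma gave 1 of the 6, and edgeR and DESeq2 gave 0, beside 4.0%, 8.55% and 7.07% of all retained transcripts with limma. The groups overlapped in all 6, while 0.247%, 1.16% and 0.865% of the retained transcripts had groups that did not overlap. The smallest p that an exact test could give was 0.00216 in each CC comparison.

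CD9 ranged from 16.6 to 146 CPM in small CC pools (median 58.2) and from 31.4 to 148 in large CC pools (median 59.1). In the spontaneous CC pools it was at 123, 154, 89.9, 97.3 and 77.2 CPM. All spontaneous pools thus lay above the medians of the other classes but within their ranges, apart from the highest. Means were 68.7 ± 45 (n = 6), 75.9 ± 42.7 (n = 6) and 108 ± 30.7 CPM (n = 5).

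From small to spontaneous the log2 fold change of CD9 in CC was 0.88 (SE 0.384, 95% limits of the ratio 1.05 and 3.23), at an unadjusted limma p of 0.034, an adjusted p of 0.55 and an exact permutation p of 0.13. For spontaneous against large the value was 0.64 (limma p = 0.0543, exact permutation p = 0.184). Of all CC transcripts 7.87% had an unadjusted p under 0.05 and a higher level in spontaneous than in small pools, and over all of them the median log2 fold change was 0.16. With median-of-ratios scaling that median was 0.01 and the log2 fold change of CD9 was 0.73 at a limma p of 0.113. Small replicate 2 held the highest CD9 of its class, and without it the difference was 1.15 at a limma p of 0.0039, which passes the nominal threshold. Large replicate 5 held the highest of the large pools, and without it the difference from large to spontaneous was 0.87 at a limma p of 0.0055. Leaving out the highest value of the lower class widens the difference by itself, so these 2 p-values add no support. Over every pool left out in turn, the difference ran from 0.54 to 1.15 (small to spontaneous) and from 0.42 to 0.87 (large to spontaneous).

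CD81 ranged from 27.2 to 69.3 CPM in small CC pools (median 48.2) and from 31 to 69.3 in large CC pools (median 48.6). It was at 28.2, 68.9, 60.6, 61.3 and 50.5 CPM in the spontaneous CC pools, which is the range of the other classes. The log2 fold changes were -0.0021 (large against small), 0.13 (spontaneous against small) and 0.14 (spontaneous against large), and the limits of the ratio lay between 0.685 and 1.63 over the 3 comparisons.

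Other cell types in the CC pools varied within every class. Summed leukocyte markers, 10 genes listed, summed to between 41.1 and 156 CPM in small, between 35.5 and 216 in large and between 47.4 and 234 in spontaneous CC pools, and none of the 10 had a CC median of 0. Over the 17 CC pools the rho of CD9 was 0.28 with the leukocyte sum and -0.06 with the cumulus sum, and that of CD81 was -0.39 and 0.12. The leukocyte sum was 125 to 260 CPM in oocyte pools, where 7 of the 10 genes had a median of 0. The 8 listed theca and stroma markers summed to 335 to 1330 CPM in small CC pools. In large CC pools they summed to 748 to 1054 CPM, and in spontaneous ones to 801 to 3409 CPM. Spontaneous replicate 2 held both the 3409 CPM and the highest CD9 of the CC pools (154 CPM). Spontaneous replicate 4 and small replicate 5, with the next highest sums of 1500 and 1330 CPM, had CD9 at 97.3 and 54.8 CPM. Large replicate 5, with a sum of 988 CPM, had CD9 at 148 CPM. The part of leukocyte, theca or stromal RNA in the CD9 and CD81 values was not tested.

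**Figure D4:**
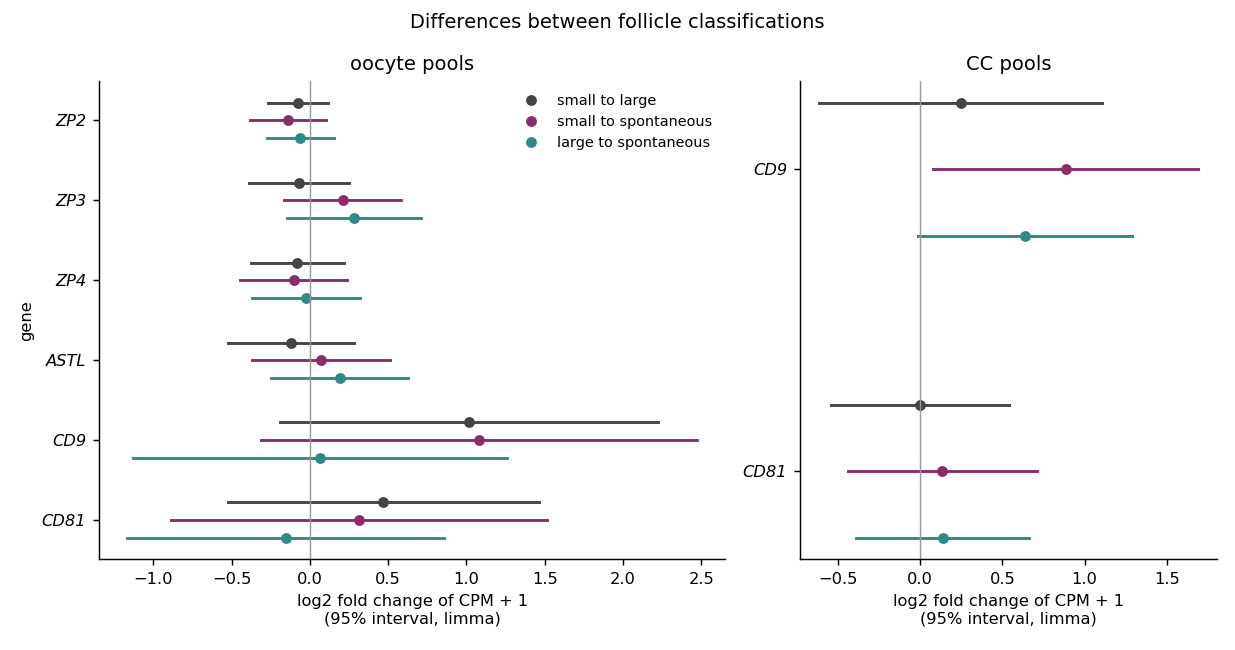
Log2 fold changes of CPM + 1 between follicle classifications with 95% intervals from limma, for 6 genes in oocyte pools and 2 in CC pools, a positive value meaning higher in the class named second. All 18 oocyte intervals include 0, and of the 6 CC intervals that of CD9 from small to spontaneous (log2 fold change 0.88) does not.

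The zona genes varied together from pool to pool. Spearman's rho over the 16 oocyte pools was 0.83 for ZP3 with ZP4, 0.63 for ZP2 with ZP4 and 0.59 for ZP2 with ZP3, as a description of genes measured in the same libraries. By likeness to ZP3 among 9570 transcripts, UQCC2 came first (rho 0.88), with MRPL38 and ZP4 at 0.83. UQCC2 and MRPL38 act in mitochondria. ZP3 ranked first for ZP4, followed by NPM2 (0.82), the oocyte histone chaperone, and SCG3 (0.80), a secretory granule protein. ASTL had a rho between 0.09 and 0.10 with each of the 3 zona genes.

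The ratio of ZP3 to ZP4 had an SD of 0.26 on the log2 scale, against 0.50 had they varied independently with the same spread. For ZP2 to ZP4 the SD was 0.23 against 0.37, and for ZP2 to ZP3 it was 0.33 against 0.44. Large replicate 6 was lowest for both ZP3 and ZP4, at 447 and 474 CPM. Spontaneous replicate 4 was highest for both, at 1128 and 971 CPM. Spontaneous replicate 3 stood off this line, with ZP3 at 1120 and ZP4 at 780 CPM.

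**Figure D5:**
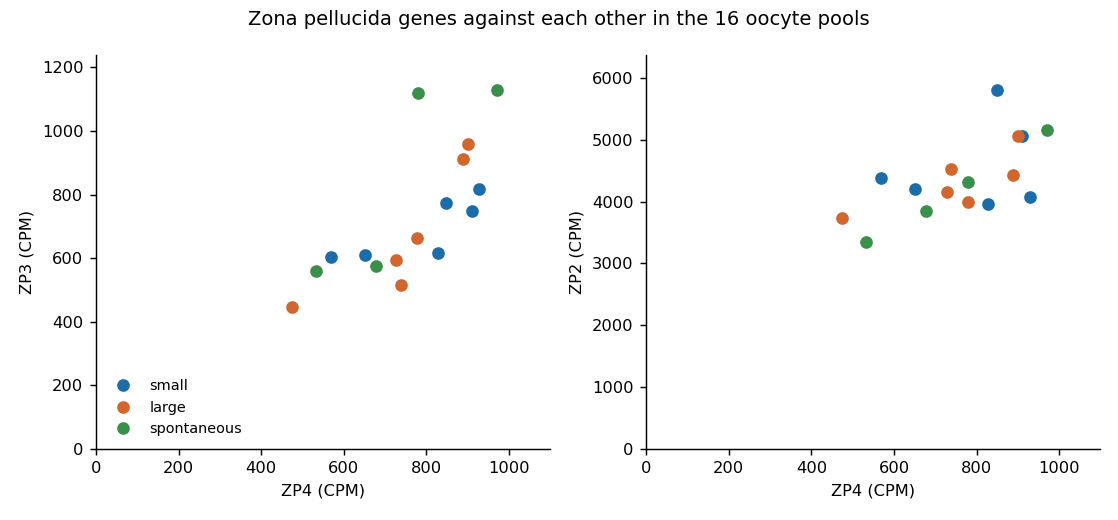
ZP3 and ZP2 against ZP4 in CPM, with 1 point per oocyte pool colored by follicle classification. ZP3 and ZP4 rise together from 447 and 474 to 1128 and 971 CPM, with pools of every class along the line.

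The spread over pools differed among the genes beyond counting error. The coefficient of variation over the 16 oocyte pools was 14.3% for ZP2, 19.6% for ZP4, 23.5% for ASTL, 28.7% for ZP3, 47.0% for CD81 and 79.8% for CD9. Counting alone would give 0.426% for ZP2 and 7.35% for CD9. Set against retained transcripts with a mean within 2-fold of their own, ZP3 varied more than 96.5% of 510, ZP4 more than 84.3% of 472 and CD9 more than 72.6% of 3165. CD81 varied more than 19.5% of 3199, which puts it among the steadier transcripts of its level. In CC the coefficient was 50.2% for CD9, more than 96.1% of 2671 transcripts, and 29.4% for CD81, more than 57.4% of 3347.

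ZP2 was most like TMEM42 (rho 0.79), ANKRD13A (0.79) and ZFP90 (0.76) in oocytes. ASTL was most like SLC35A4 (0.88), STRIP2 (0.85) and FST (0.80), and CD81 most like ACAD11 (0.83), MAP1B (0.81) and FILIP1L (0.79). Over the 17 CC pools and 9293 transcripts, CD9 was most like ZMYM1 (0.88), EXOSC8 (0.83) and DDIAS (0.81), and CD81 most like GTF2E2 (0.90), RNASEK (0.88) and RAB2A (0.88).

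The wider list of egg coat and oocyte surface genes, which holds the zona genes, ASTL, FIGLA and OOSP1, had no called difference in oocytes. Of its 12 symbols 7 were found and 6 retained in oocytes, and 0 of these 6 passed in any comparison with limma. Over all retained oocyte transcripts the share that passed lay between 0.655% and 0.943%. For ZP2, ZP3, ZP4 and ASTL these are the tests given above, so that only FIGLA and OOSP1 were added. FIGLA, the activator of the zona genes, had means of 97.7 ± 23.4 (small), 105 ± 44.1 (large) and 156 ± 64.8 CPM (spontaneous) in oocyte pools (SD, n = 6, 6 and 4). Its log2 fold change from small to spontaneous was 0.60 (SE 0.274, unadjusted limma p = 0.0365, adjusted p = 0.987, exact permutation p = 0.0667). Without small replicate 3 it was 0.52 at an unadjusted limma p of 0.0757. For spontaneous against large it was 0.56 (exact permutation p = 0.162). ZP2, ZP3 and ZP4, in the same pools, had fitted values of -0.14, 0.21 and -0.10 from small to spontaneous. OOSP1 was at 1643 ± 519, 1964 ± 556 and 1982 ± 217 CPM. OVGP1, the oviduct glycoprotein that coats the egg after ovulation, was read in 1 of 16 oocyte pools and in 3 of 17 CC pools.

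Tetraspanins and their partners, a list that includes CD9 and CD81, mostly overlapped between the cell types. Of the 28 genes with a row in both tables, 7 had every CC pool above every oocyte pool (CD63, CD151, TSPAN4, TSPAN6, TSPAN17, TSPAN31 and the integrin ITGAV) and 3 had every oocyte pool above every CC pool (TSPAN5, TSPAN7 and TSPAN14), and the other 18 overlapped. Over all 14980 genes the shares were 10.6% with CC higher and 17.5% with oocytes higher. TSPAN7 had medians of 169 CPM in oocytes and 7.22 in CC, and TSPAN14 had 141 and 6.61. CD63, a tetraspanin of late endosomes, had medians of 32.5 and 380 CPM. IGSF8 and PTGFRN, the immunoglobulin proteins that bind CD9 and CD81 directly, had oocyte medians of 0 and 5.89 CPM against 7.67 and 19.4 in CC. ITGB1, the integrin beta 1 chain, overlapped, with medians of 521 and 867 CPM.

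By follicle classification, 0 of the 17 tetraspanins and partners retained in oocytes passed in any comparison with limma. Of all retained oocyte transcripts between 0.655% and 0.943% passed. In CC 1 of 21 rose from small to large (0.69% of all transcripts) and 2 of 21 from small to spontaneous (2.28%). From large to spontaneous 0 of 21 passed, beside 1.66% of all retained CC transcripts. ITGAV, the integrin alpha V chain, had means of 491 ± 111 (small, n = 6), 754 ± 163 (large, n = 6) and 831 ± 311 CPM (spontaneous, n = 5) in CC. Its log2 fold change was 0.62 from small to large (SE 0.194, limma p = 0.0046, adjusted p = 0.999, exact permutation p = 0.0152) and 0.72 from small to spontaneous (SE 0.225, limma p = 0.0051, adjusted p = 0.39). TSPAN6 was at 108 ± 26.6 CPM in small and 165 ± 30.5 in spontaneous CC pools, a log2 fold change of 0.62 (SE 0.198, limma p = 0.0058, adjusted p = 0.39, exact permutation p = 0.0087). Neither gene passed from small to spontaneous with median-of-ratios scaling, with edgeR or with DESeq2. The ITGAV difference from small to large passed with each of these, and in 7 of 12 fits that left out 1 pool. It did not pass without the mitochondrially encoded genes.

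From small to spontaneous, 7 of the 21 had an unadjusted p under 0.05 in CC, all higher in spontaneous pools, beside 7.87% of all CC transcripts. They were CD9, TSPAN3, TSPAN6, ITGA6, ITGAV and the CD9 partners IGSF8 (log2 fold change 0.74) and PTGFRN (0.80). With median-of-ratios scaling 2 of the 21 were under 0.05, beside 3.46% of all CC transcripts. The 21 had a median log2 fold change of 0.18, and all retained CC transcripts together had one of 0.16.

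Genes that process zona proteins or release cortical granules showed no called difference in either cell type, with 0 of 14 retained in oocytes and 0 of 15 in CC. The shares over all transcripts lay between 0.655% and 0.943% in oocytes and between 0.813% and 2.38% in CC. Without the filter on low values 1 gene of the list, SYT1, passed in oocytes, lower in spontaneous than in small pools. SYT1 was low in oocyte pools, with a median of 1.12 CPM and a range of 0 to 12.6 CPM. The shares above are for retained transcripts, and the share without the filter is not given here. FURIN, a convertase that can cleave zona precursors, and SNAP23 and NSF, parts of the membrane fusion machinery, had every oocyte pool above every CC pool, which makes 3 of the 17 genes in both tables beside 17.5% of all genes. SYT1, a calcium sensor of vesicle release, had every CC pool higher (10.6% of all genes), and the other 13 overlapped. FURIN medians were 157 and 30.4 CPM.

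Of the genes of egg-activating calcium signalling, 0 of the 6 retained in CC passed in any comparison. The shares over all retained CC transcripts lay between 0.813% and 2.38%. FBXO43, which holds the egg at metaphase, was read in 2 of 17 CC pools and at 106 to 275 CPM in oocyte pools.

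In CC, 1 of the 13 retained markers of cumulus and granulosa cells, the pools' own cell type, passed between small and large pools. That comparison had 0.813% of all transcripts passing. Between small and spontaneous pools 0 of the 13 passed, beside 2.38% of all transcripts. Between large and spontaneous pools 2 of the 13 passed, beside 1.66%. Of the 7 retained markers of theca and stroma, 1 passed between small and spontaneous pools and 0 in the other comparisons. VCAN rose from small to large (log2 fold change 0.71, limma p = 0.0091, exact permutation p = 0.0065) and PDGFRA, a receptor of stromal cells, from small to spontaneous (1.24, limma p = 0.0094, exact permutation p = 0.119). INHA, the inhibin alpha chain, rose from large to spontaneous (0.89, limma p = 0.0066, exact permutation p = 0.0476), as did CYP19A1, the aromatase (1.74, limma p = 0.0081, exact permutation p = 0.0216). With median-of-ratios scaling 0 of the 4 passed. Of 8 alternative settings, VCAN passed in 5, among them edgeR and DESeq2, INHA in 3, PDGFRA in 2 and CYP19A1 in 0. VCAN passed in 4 of 12 fits that left out 1 pool. The smallest of their adjusted p-values was 0.418.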

How the data were processed

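Per the file headers, 1 deposited table holds CPM of 16 oocyte pools and the other CPM of 17 CC pools. The authors filtered the reads, mapped them with Hisat2 to the bovine genome UMD3.1, obtained counts per Ensembl gene with FeatureCounts, and scaled each library by its reads on genes. Whole counts were recovered as multiples of the worth of 1 read (100% of values, within 0.01 of a read). All columns were matched to pools by name. No coordinates or sequences are given, because no genome of that build was used here.

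A transcript was retained if 4 oocyte pools, or 5 CC pools, reached 5 CPM. limma (3.58.1, in R 4.3.3) with a mean-variance trend was fitted to log2(CPM + 1) of 2 classifications at a time, without covariates. Such a fold change understates that of low transcripts. The threshold was a nominal p of 0.01, and in comparisons with small oocyte pools it had to be met without small replicate 3 too. Benjamini-Hochberg adjustment was over all retained transcripts, and exact permutation tests used the difference in mean CPM. Alternatives were a pseudocount of 0.1, no filter, median-of-ratios scaling, leaving out mitochondrially encoded genes, a joint fit of the 3 classifications, a replicate block, edgeR (4.0.16) quasi-likelihood, DESeq2 (1.42.0) and each pool left out. Of these fits, only the limma fit of 2 classifications was run on simulated data.

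Libraries within a group always differed by more than sampling noise (chi-square over its degrees of freedom at least 60.9 for oocytes and 13.4 for CC). The p-values measure the spread between pools. The 6 genes, the other lists and the markers were chosen with earlier results of these data known. Genes named were the 6, any listed gene that passed, FIGLA and IZUMO1R, and for each of the 6 the 3 transcripts with the highest Spearman's rho. Further list genes were named after their values were seen. The results of 2 transcripts are not reported here.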

Additional observations from a re-analysis of the deposited data

Results flagged for a closer look

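CD9 in spontaneous oocyte replicate 3, at 39.4 CPM, lay far from the other 3 spontaneous oocyte pools (8.81, 12.7 and 13.3 CPM), by Dixon's test of the gap to the nearest pool against the range of the class. It was 1 of 24 gene and class groups examined, of which chance alone would mark 1.2. The summed cumulus and granulosa markers of that pool were 3113 CPM, the highest of the 4.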

How the results depend on the processing

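The number of pools and their spread leave intervals for the ratio of classes from 0.766 to 1.11 for ZP2 and from 0.457 to 5.54 for CD9 in oocytes, so smaller differences in CD9 could not be detected. Of 24 log2 fold changes, 13 kept their direction under every alternative run, and in the other 11, each at most 0.24 in size, it turned in 29 of 452 alternative values. The cause was not tested. With edgeR and DESeq2 CD9 from large to spontaneous oocytes was -0.055 and -0.042, and with DESeq2 CD9 from small to large CC was -0.0073. CD81 from small to spontaneous CC was -0.019 with median-of-ratios scaling, -0.032 without mitochondrially encoded genes and -0.0014 with DESeq2.

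With 1 pool left out, oocyte values from small to large ran from -0.18 to 0.038 for ZP3 and from -0.17 to 0.048 for ZP4, both positive only without large replicate 6. From small to spontaneous they ran from -0.25 to 0.043 for ZP4 and from -0.0078 to 0.21 for ASTL. From large to spontaneous they ran from -0.17 to 0.038 for ZP2, -0.17 to 0.12 for ZP4, -0.36 to 0.33 for CD9 and -0.35 to 0.035 for CD81. In CC, CD9 ran from -0.10 to 0.52 (small to large), 0.54 to 1.15 (small to spontaneous) and 0.42 to 0.87 (large to spontaneous), and CD81 from -0.16 to 0.11 and from -0.020 to 0.35 in the same order for the comparisons with small pools. CD9 alone passed the threshold, without small replicate 2 or without large replicate 5.

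Counts over all transcripts were within 1.5 times of the values as reported in 96 of 114 cases. In oocytes from small to large 66 transcripts passed, 100 without the filter and 113 with DESeq2. From small to spontaneous 78 passed, 121 with DESeq2, and 49 to 130 with 1 pool left out, the extremes being without spontaneous replicate 3 and without small replicate 3. From large to spontaneous 95 passed, 148 without the filter, 181 with DESeq2, and 75 to 145 with 1 pool left out, most without spontaneous replicate 2. In CC from small to large 79 passed, 121 without the filter, 137 in the joint fit, and 52 to 113 with 1 pool left out, fewest without small replicate 5. From small to spontaneous 231 passed, 126 with median-of-ratios scaling, 125 without mitochondrially encoded genes, 128 with edgeR, and 141 to 313 with 1 pool left out, fewest without spontaneous replicate 5. From large to spontaneous 161 passed, and 88 to 232 with 1 pool left out, fewest without spontaneous replicates 4 (88) and 5 (99).

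With the replicate number as a block, 43 oocyte transcripts passed from small to spontaneous, CD81 from large to spontaneous oocytes was 0.12, and 0 of the 24 tests of the 6 genes passed. Same-numbered pools deviated together no more than others, with correlations of -0.13 to 0.14 (median -0.03, 1 of 14 pairs over 0.1) in oocytes and -0.19 to 0.22 (median -0.04, 3 of 16 over 0.1) in CC, so the numbers were not taken to pair the pools.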
